A study of Mus musculus with 6 samples.

Results

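The proteasome subunit genes were taken as the rows of the series table with a name of the form Psma, Psmb, Psmc or Psmd followed by a number, leaving out the immunoproteasome genes Psmb8, Psmb9 and Psmb10. This gave 36 genes of 55401 in the table, 16 of the core particle (Psma and Psmb) and 20 of the regulatory particle (Psmc and Psmd). RNA was sequenced from bone marrow-derived macrophages (BMDMs), the cells that grow out of mouse bone marrow under M-CSF, in 3 libraries labelled Lamtor5 knockdown and 3 labelled WT. The series' design text names the mutant mice after HBXIP, another name of Lamtor5, and LysM. In mouse genetics LysM stands for Lyz2, a lysozyme gene of myeloid cells into which Cre is placed to delete a target there. The Cre line, the floxed allele, the age of the mice and any pooling are not stated. Lamtor5 encodes a subunit of Ragulator, which holds the Rag GTPases and mTORC1 at the lysosome.

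The proteasome is the protease that degrades proteins tagged with ubiquitin in the cytosol and nucleus. Its core particle is a barrel of alpha rings, which form the gate, and beta rings, which hold the catalytic sites. The regulatory particle caps the barrel: its base has a ring of ATPases that unfold the substrate and subunits that bind ubiquitin, and its lid removes the ubiquitin chain. In mammals the transcription factor NRF1 (Nfe2l1) drives the subunit genes together through antioxidant response elements. In macrophages the proteasome also makes peptides for MHC class I, in part with immunoproteasome subunits that replace the constitutive catalytic ones.

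The libraries held 75.8 to 83.2 M estimated counts (M, counts in units of 1e6). FPKM is the count per length and depth. Lamtor5 had 25.5, 27.1 and 24.8 FPKM in the knockdown libraries, against 55.9, 54.5 and 56.2 FPKM in WT. None of 10 macrophage markers was at 0 throughout. Their sum was 2070 to 13281 FPKM in the knockdown, against 24356 to 31498 FPKM in WT, most of it from Lyz2, the gene of the LysM name, which was not called (11356, 10650.0 and 73.6 FPKM in the knockdown libraries, against 29379, 24743 and 22454 FPKM in WT, adjusted p = 0.408 by edgeR). Without Lyz2 the other 9 markers summed to 1925, 1844 and 1996 FPKM in the knockdown libraries and to 2119, 1973 and 1902 FPKM in WT, and the groups overlapped. The largest part of that sum was Cd68, which was higher in the knockdown. It had 1402, 1273 and 1571 FPKM in the knockdown libraries, against 938, 930 and 971 FPKM in WT. The overlap of the sum therefore does not show that the other markers were at like levels. Of the 10 markers 7 were called lower in the knockdown, among them Csf1r (-1.18), and 1 higher, Cd68 (0.63, adjusted p = 0.0198), while Mertk was at 1.14 and not called (adjusted p = 0.0922). The summed level of 12 cell division markers was 76.8, 114 and 65.1 FPKM in the knockdown libraries and 192, 361 and 475 FPKM in WT. Marker sums of mast cells, basophils and eosinophils were higher in the knockdown (6.97 to 15.6 FPKM) than in WT (2.43 to 4.87 FPKM), and those of B cells were lower in the knockdown (10.6 to 31.3 FPKM) than in WT (56.0 to 72.6 FPKM). Erythroid markers summed to 1.93 to 15.2 FPKM in the knockdown, against 0.814 to 1.18 FPKM in WT, with Alas2 at 0 in every library, and T and NK cell markers stayed under 1 FPKM with Cd3g at 0. Neutrophil marker sums (129 to 250.1 FPKM in the knockdown, 158 to 223 FPKM in WT) and fibroblast marker sums (2.22 to 6.89 FPKM in the knockdown, 3.34 to 7.43 FPKM in WT) overlapped. Among 10 neutrophil markers Ltf was called lower (-1.76, adjusted p = 0.0153) and Mpo higher (0.95, adjusted p = 0.0346). The part of these differences in the proteasome results was not tested, and in bulk RNA fewer cells of a type and less RNA per cell cannot be told apart.

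By edgeR 1 proteasome gene passed the test. Psmd8, the lid subunit known in yeast as Rpn12, rose in the knockdown, and it was also the most abundant member per length in WT. None of the other members passed the test. Their differences were small and mostly downward: of the 35 members tested 27 had a log2 fold change below 0 (77.1%), against 48.5% of all genes tested, and the median was -0.13, against 0.02 for all genes. By edgeR's quasi-likelihood test 1 member was higher and 0 were lower at a Benjamini-Hochberg adjusted p of 0.05 over 18164 genes, a threshold that 4.87% of all genes passed upward, 6.46% downward and 11.3% in either direction. At an unadjusted p under 0.05 there were 2 members higher and 4 lower, 6 of 35 in all, against 30.2% of all genes. All members but Psmd8, 34 of 35, had an absolute log2 fold change under 0.5, against 63.0% of all genes. With upper-quartile scaling 25 of 35 members lay below 0, and the calls over all genes were 1156 higher and 958 lower, against 885 higher and 1173 lower with TMM. DESeq2 called 1 member higher and 4 lower, and limma on log2(FPKM + 1) called 1 higher and 1 lower.

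Promoter windows of 3 members, chosen by their results, are given. Psmd8 is the member that rose, Psma1 had the smallest p among the members below 0, and Psmb6 was the core subunit whose levels lay higher in every knockdown library. Each is the RefSeq window on GRCm38.p6 from 250 bases before to 50 bases after the start of transcription. They lie at chr7:29180624-29180923 (minus strand) for Psmd8, chr7:114276067-114276366 (minus strand) for Psma1 and chr11:70525107-70525406 (plus strand) for Psmb6. Capitals mark matches on either strand to the antioxidant response element TGACNNNGC, the CCAAT box CCAAT or the E-box CACGTG.
Psmd8: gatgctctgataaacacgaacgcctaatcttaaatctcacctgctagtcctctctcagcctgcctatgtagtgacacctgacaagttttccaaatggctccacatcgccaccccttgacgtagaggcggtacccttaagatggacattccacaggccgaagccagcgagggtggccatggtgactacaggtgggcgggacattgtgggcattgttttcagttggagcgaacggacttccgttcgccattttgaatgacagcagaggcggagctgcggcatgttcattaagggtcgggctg
Psma1: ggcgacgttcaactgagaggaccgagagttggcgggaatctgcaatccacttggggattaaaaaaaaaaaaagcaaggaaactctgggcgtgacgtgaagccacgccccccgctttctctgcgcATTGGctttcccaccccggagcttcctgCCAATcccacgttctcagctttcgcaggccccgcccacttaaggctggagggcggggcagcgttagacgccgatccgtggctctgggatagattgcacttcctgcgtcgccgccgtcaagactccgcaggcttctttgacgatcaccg
Psmb6: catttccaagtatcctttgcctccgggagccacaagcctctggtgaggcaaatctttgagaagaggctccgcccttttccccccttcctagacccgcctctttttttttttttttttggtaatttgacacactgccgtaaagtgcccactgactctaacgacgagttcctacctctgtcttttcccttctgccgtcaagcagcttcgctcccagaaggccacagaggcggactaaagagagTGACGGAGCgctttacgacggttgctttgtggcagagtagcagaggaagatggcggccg
The Psmd8 window held no match to any of the 3 motifs, the Psma1 window 2 CCAAT boxes and the Psmb6 window 1 antioxidant response element. The window of Psmc5, a member with a log2 fold change of -0.26, held no match either. Whether the matches go with the direction of the members was not tested. Of the 36 members 29 had a RefSeq window, 31 windows in all. The antioxidant response element was matched in 5 of them (16.1%), against 12.4% of all 32851 windows in the RefSeq table, in Psmb5, Psmb6, Psmc6, Psmd9 and Psmd12. The CCAAT box was matched in 12 windows (38.7%), against 37.4% of all windows, and the E-box in 2 windows (6.5%), those of Psma4 and Psmd9, against 7.2% of all windows. A match describes the letters only.

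**Figure D1:**
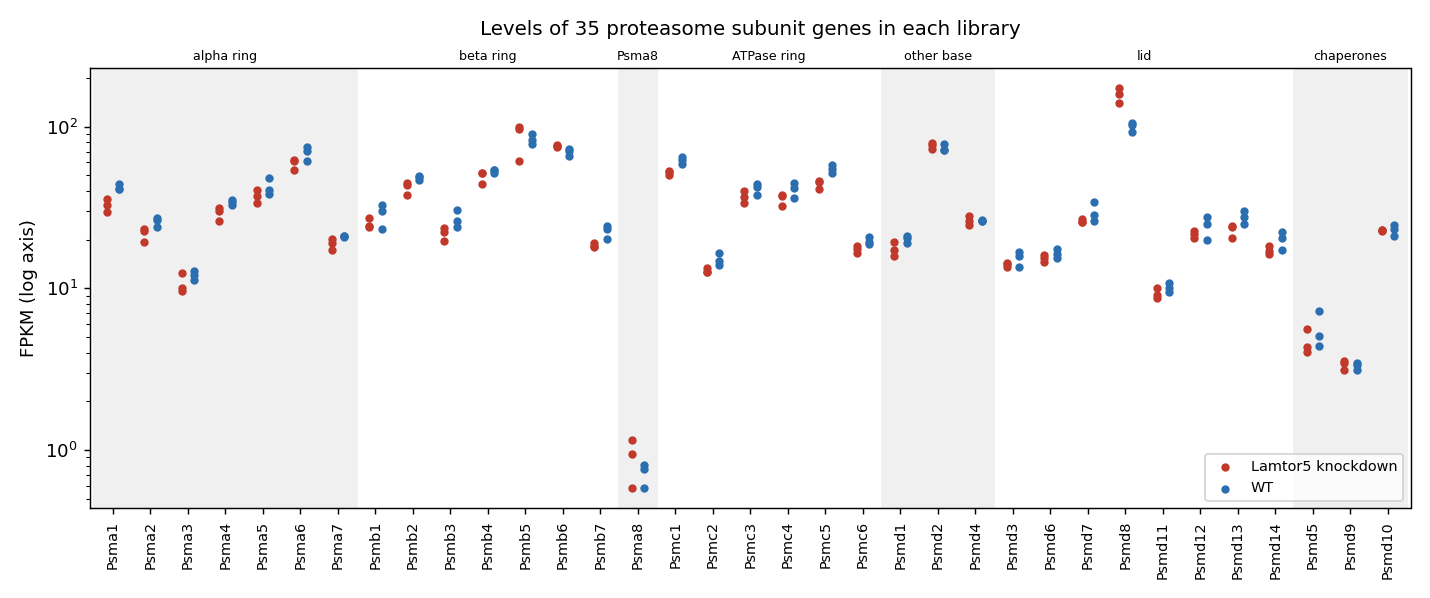
FPKM (log axis) of the 35 tested members in each library, grouped by place in the complex, with 3 knockdown libraries (red) left of 3 WT libraries (blue) for each gene. Psmd8 is the member whose knockdown libraries stand clearly above its WT libraries, at 140.4 to 174 FPKM against 92.5 to 104.9 FPKM.

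Psmd8 (ENSMUSG00000030591, GRCm38 chromosome 7, 29174188 to 29180673, minus strand) had 140.4, 158 and 174 FPKM in the knockdown libraries, against 92.5, 104.9 and 103 FPKM in WT. Every knockdown library was above every WT library. The means were 158 ± 16.96 FPKM in the knockdown, against 100.1 ± 6.69 FPKM in WT (SD, n = 3 each), and edgeR's quasi-likelihood test gave a log2 fold change of 0.70 (SE 0.098, 1.63-fold, adjusted p = 0.0129). Of all genes tested 15.0% had a log2 fold change of at least 0.70. No other tested gene overlaps Psmd8, and no transcript of another gene shared 200 nt at 95% identity with it. Without WT replicate 2 its log2 fold change was 0.72 with an adjusted p of 0.0657; without that library no gene in the table passed.

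With its rise, Psmd8 took a larger share of the regulatory particle in FPKM, which is a level per length. It made up 22.5%, 24.3% and 27.8% of the summed FPKM of the regulatory particle genes in the knockdown libraries, against 15.8%, 16.5% and 15.5% in WT. Relative to the median of the other lid genes its FPKM was 7.64, 9.35 and 10.8 times as high in the knockdown libraries and 5.33, 5.16 and 4.64 times as high in WT. On both measures the groups did not overlap. Both restate the FPKM of Psmd8 given above and are not further evidence of its rise. These are RNA levels, and protein was not measured.

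The remaining lid genes stayed near their WT level. The 7 of them had log2 fold changes from -0.22 to -0.05, all below 0 (Psmd6 was at 0.026 with upper-quartile scaling), and none passed the test. Psmd14, the deubiquitinase that cuts the chain off the substrate, had 18.4, 16.9 and 16.2 FPKM in the knockdown libraries, against 17.4, 20.3 and 22.2 FPKM in WT, so the groups overlapped (log2 fold change -0.17, adjusted p = 0.354). Psmd13, a structural lid subunit, was the lid gene with the lowest fold change (-0.22, SE 0.099, adjusted p = 0.198), at 20.4 to 24.3 FPKM in the knockdown, against 24.8 to 29.9 FPKM in WT. It overlaps Sirt3 and Gm15542 in the table, so its value is uncertain if reads were shared. Psmd3, Psmd6, Psmd7, Psmd11 and Psmd12 had overlapping groups and adjusted p of up to 0.733.

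In the base all 6 ATPase genes, Psmc1 to Psmc6, lay below 0, by a median of -0.16, and none passed the edgeR test. Psmc5 had 46.3, 45.6 and 41.0 FPKM in the knockdown libraries, against 52.0, 54.5 and 58.0 FPKM in WT (log2 fold change -0.26, SE 0.081, adjusted p = 0.0855). Psmc1 had 52.9, 52.7 and 50.1 FPKM in the knockdown libraries, against 59.0, 62.5 and 64.5 FPKM in WT (-0.21, SE 0.068, adjusted p = 0.0939). Psmc2 had 12.7, 13.4 and 12.6 FPKM in the knockdown libraries, against 14.02, 14.7 and 16.5 FPKM in WT (-0.18, adjusted p = 0.194). The groups did not overlap for these 3 genes, nor for Psmc6. DESeq2 called Psmc5 (adjusted p = 0.0339) and Psmc1 (adjusted p = 0.0298) lower. Of the other base subunits, the scaffold Psmd2 and the ubiquitin receptor Psmd4 were at 0.10 and 0.05, and the scaffold Psmd1 at -0.15, each with overlapping groups.

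The 3 chaperones of regulatory particle assembly, Psmd5, Psmd9 and Psmd10, are named as subunits but leave the complex when it is complete. They had log2 fold changes of -0.21, 0.07 and 0.04 with overlapping groups. Psmd9 and Psmd5 were the least abundant members next to the tissue-restricted genes, at 3.35 and 4.65 FPKM on average in the knockdown, against 3.30 and 5.58 FPKM in WT. Psmd10, also called gankyrin, was more abundant, at 22.8 ± 0.275 FPKM in the knockdown, against 22.9 ± 1.87 FPKM in WT (SD, n = 3 each).

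In the core particle no member passed the edgeR test. Of 15 tested genes 12 lay below 0, against 48.5% of all genes tested, and the median log2 fold change was -0.14. At an unadjusted p under 0.05 there was 1 gene higher and 2 lower, against 30.2% of all genes in either direction. All 7 alpha ring genes were below 0, from -0.31 to -0.11. Psma1 had 32.8, 35.8 and 29.8 FPKM in the knockdown libraries, against 40.9, 41.1 and 44.1 FPKM in WT, with groups that did not overlap. Its log2 fold change of -0.31 (SE 0.080) had an adjusted p of 0.0528 in edgeR's quasi-likelihood test, just outside the threshold. DESeq2 (adjusted p = 0.00969) and limma on log2(FPKM + 1) (adjusted p = 0.0427) called it lower. Psma2 had 22.7, 23.2 and 19.4 FPKM in the knockdown libraries, against 24.03, 26.3 and 27.2 FPKM in WT (-0.20, adjusted p = 0.182). Psma2, Psma4 and Psma7 also had groups that did not overlap, with the knockdown lower, and Psma3, Psma5 and Psma6 had groups that did.

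**Figure D2:**
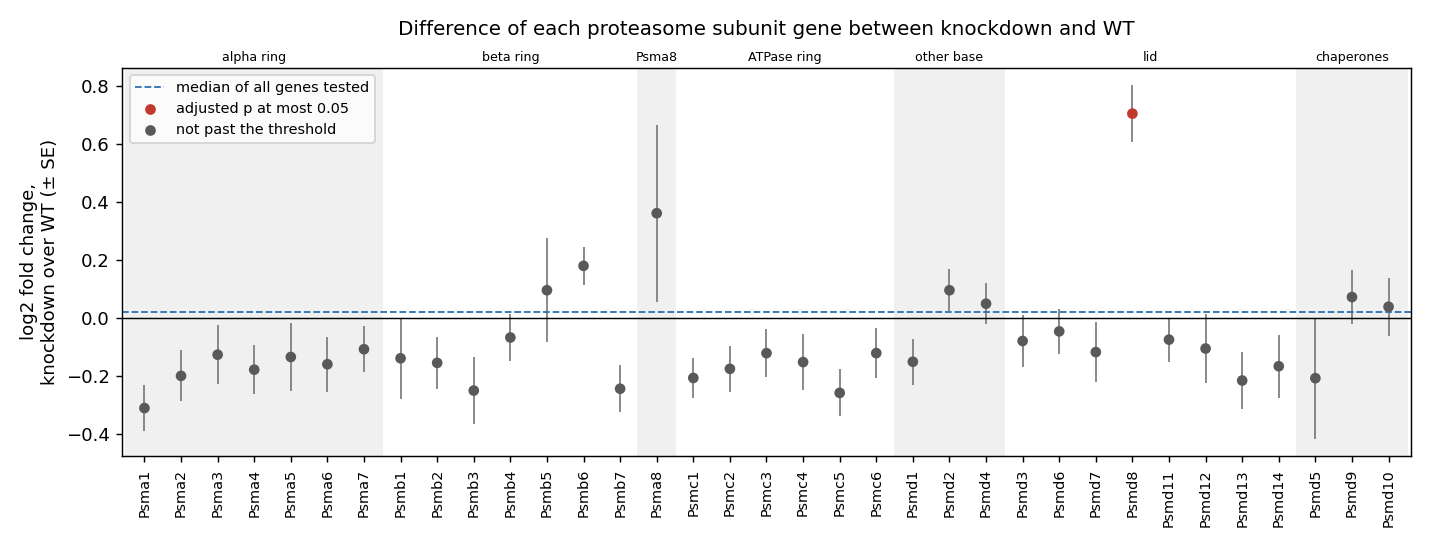
Log2 fold change of the knockdown over WT with its SE (edgeR) for each of the 35 tested members, grouped by place in the complex; the dashed line is the median of all genes tested (0.02). Psmd8 at 0.70 is the point past the threshold, and 27 members lie below 0.

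The beta ring was mixed. The catalytic genes Psmb6 (caspase-like site), Psmb7 (trypsin-like site) and Psmb5 (chymotrypsin-like site) had log2 fold changes of 0.18, -0.24 and 0.10. Psmb6 had 75.7, 77.4 and 75.2 FPKM in the knockdown libraries, against 65.5, 70.8 and 72.3 FPKM in WT. Its groups did not overlap, but the difference did not pass (SE 0.065, adjusted p = 0.121), except with upper-quartile scaling (log2 fold change 0.25, adjusted p = 0.0491). Psmb7 had 18.1, 19.1 and 18.2 FPKM in the knockdown libraries, against 20.3, 23.3 and 24.4 FPKM in WT (SE 0.081, adjusted p = 0.0971). DESeq2 called Psmb7 lower (adjusted p = 0.0483), and so did edgeR without WT replicate 1 (adjusted p = 0.0467). Psmb7 overlaps Nek6 in the table and shares a stretch of 255 nt with it. The structural genes Psmb1, Psmb2, Psmb3 and Psmb4 lay between -0.25 and -0.07 with adjusted p from 0.196 to 0.625.

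Psmb5 was the member with the largest SD in FPKM within a group (21.6 in the knockdown, 6.09 in WT), and its value depends on how reads were split with a near-identical copy. It had 97.2, 100.2 and 61.4 FPKM in the knockdown libraries, against 77.6, 82.8 and 89.7 FPKM in WT, with knockdown replicate 3 below all others. The processed pseudogene Gm3375 matches the Psmb5 transcript at 98.9% over 796 nt. It held 186, 199 and 1262 estimated counts in the knockdown libraries, against 1740, 1968 and 2017 in WT. Psmb5 itself held 8034, 7700 and 4926 estimated counts in the knockdown libraries, against 6490, 6927 and 7502 in WT. Together the pair came to 8220, 7899 and 6188 in the knockdown libraries and to 8230, 8895 and 9519 in WT. These sums are not scaled to depth. The closest, 8220 in knockdown replicate 1 and 8230 in WT replicate 1, came from libraries of 81.34 and 82.47 M estimated counts. Divided by these depths, knockdown replicate 1 lay above WT replicate 1, so the groups of the scaled sums overlapped. The log2 fold change of the sum was -0.14 (SE 0.12, adjusted p = 0.462 by edgeR), opposite in sign to that of Psmb5 alone (0.10, SE 0.18, adjusted p = 0.761).

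Near-identical pseudogenes (at least 95% identity over at least 200 nt) were found for 9 members, with 15 such copies. For Psma3 the copy Gm13835, identical over 685 nt, and 2 others together held 1601, 1452 and 1313 estimated counts in the knockdown libraries and 1686, 1849 and 2317 in WT. Psma3 itself held 3579, 4117 and 3359 in the knockdown libraries and 4060, 4380 and 4635 in WT, and with its copies its log2 fold change was -0.18 (adjusted p = 0.278), against -0.13 alone. Psma2, Psma3, Psma6, Psmb7, Psmc3, Psmd1 and Psmd13 overlap another tested gene in the table, and their values are uncertain to that extent. Adding the pseudogene copies to their members changed no call among the members by edgeR, with Psmd8 the 1 member higher. Over all genes the calls were then 887 higher and 1174 lower. Copies of other types were not added, and 12 members had such a stretch in another gene of any type. For Psmd11 this includes A730017L22Rik, a processed transcript that matches at 97.9% over 1501 nt. It held up to 910 estimated counts in a library.

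**Figure D3:**
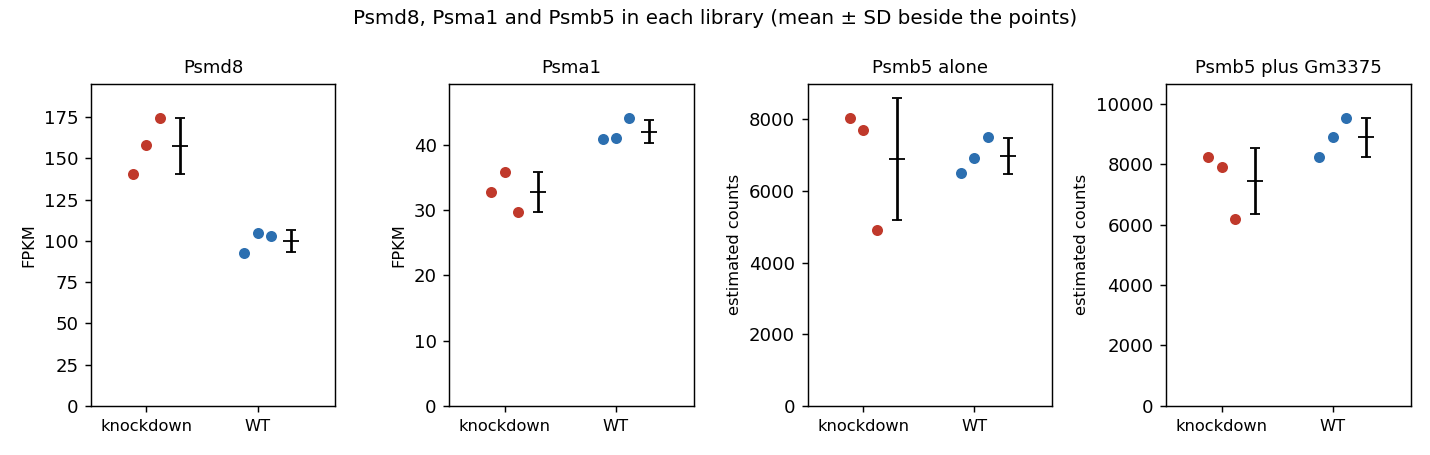
Levels in each library of Psmd8 and Psma1 (FPKM) and of Psmb5 alone and with its pseudogene Gm3375 (estimated counts); points are libraries, knockdown left of WT, and the bar beside them is the mean with its SD (n = 3). Psmb5 alone held 4926 to 8034 estimated counts in the knockdown, against 6490 to 7502 in WT. The sum held 6188 to 8220, against 8230 to 9519, and these counts are not scaled to depth. Scaled to depth, the groups of the sum overlapped.

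The tissue-restricted core genes were at or near 0. Psmb11, the thymus catalytic subunit, held 0 estimated counts in every library and was not tested. Psma8, the testis counterpart of Psma7, held 264, 203 and 133 estimated counts in the knockdown libraries and 189, 179 and 136 in WT, with groups that overlapped (log2 fold change 0.36, SE 0.30, adjusted p = 0.476). Its level was 3.38% to 6.001% of that of Psma7 in the knockdown and 2.73% to 3.90% in WT.

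Levels per length differed widely among the members. In the knockdown the order was led by Psmd8 (158 FPKM), Psmb5 (86.2 FPKM), Psmd2 (76.2 FPKM), Psmb6 (76.1 FPKM) and Psma6 (59.3 FPKM). In WT it was led by the same genes, Psmd8 (100.1 FPKM), Psmb5 (83.4 FPKM), Psmd2 (73.8 FPKM), Psmb6 (69.5 FPKM) and Psma6 (68.6 FPKM). In WT Psmd8 lay above Psmb5 in every library, while Psmb5 and Psmd2, Psmd2 and Psmb6, and Psmb6 and Psma6 overlapped. Within a library the SD of log2 FPKM over the 14 constitutive core genes was 0.82 to 0.90 in the knockdown and 0.77 to 0.80 in WT. Over the 20 regulatory particle genes it was 1.26 to 1.28 in the knockdown and 1.16 to 1.22 in WT.

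The core and the regulatory particle had like median fold changes. The median log2 fold change by edgeR was -0.14 over 15 core genes and -0.12 over 20 regulatory particle genes, against 0.02 over all genes tested. The groups did not overlap in 8 of 15 core genes (1 higher and 7 lower in the knockdown) and in 6 of 20 regulatory particle genes (1 higher and 5 lower). Over all members this was 2 of 35 higher and 12 of 35 lower, against 16.3% and 21.3% of all genes and 37.6% in either direction, so the total lies near the background. Mean log2 FPKM was higher in the core by 0.604, 0.604 and 0.466 in the knockdown libraries and by 0.663, 0.617 and 0.606 in WT. Without Psmd8 these gaps were 0.746, 0.753 and 0.626 in the knockdown libraries and 0.773, 0.729 and 0.714 in WT, and the groups overlapped. A p-value for such sums over members was not computed.

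The small downward differences were not equal among libraries. Of 34 members (all but Psma8 and Psmb11) 20 had their lowest FPKM in knockdown replicate 3 and 24 their highest in WT replicate 3. The median difference of the 14 core genes from their WT mean, on log2 FPKM, was -0.16, -0.15 and -0.33 in the knockdown libraries and -0.09, 0.01 and 0.07 in WT. For the regulatory particle without Psmd8 it was -0.16, -0.11 and -0.18 in the knockdown libraries and -0.09, 0.01 and 0.08 in WT. On FPKM the median of all genes was itself -0.05 by limma, and these values are on that scale. Knockdown replicate 3 was the lowest library in both particles and in the summed cell division markers (65.1 FPKM), and WT replicate 3 was the highest in all of these (475 FPKM for the markers). The part of cell division in the proteasome levels was not tested.

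**Figure D4:**
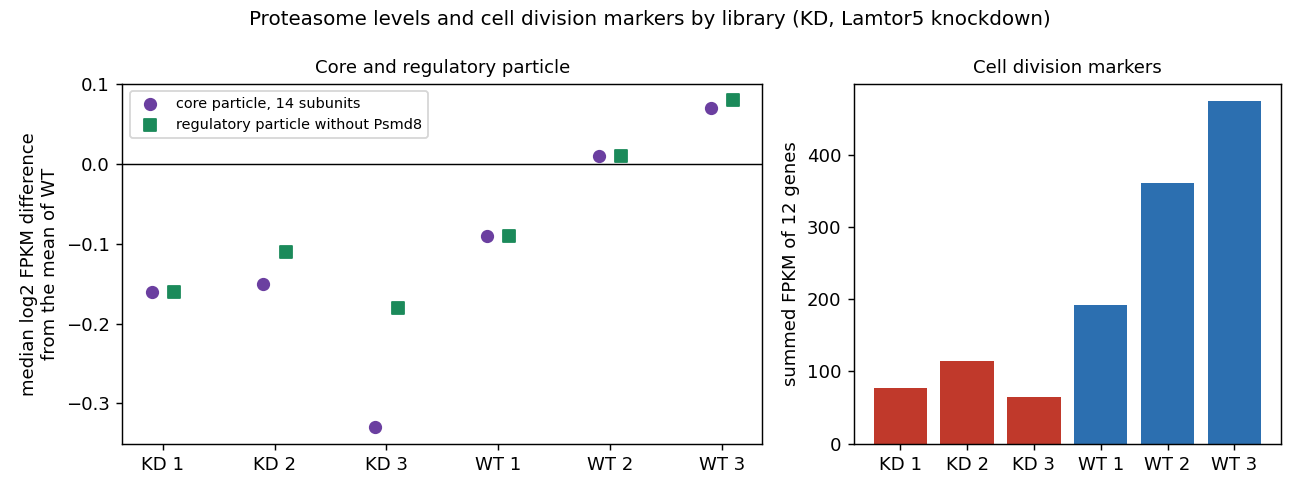
Left, the median difference of the 14 core genes (circles) and of the regulatory particle genes without Psmd8 (squares) from their WT mean, on log2 FPKM; right, the summed FPKM of 12 cell division markers, in the knockdown (KD) and WT libraries. Both particles are lowest in knockdown replicate 3 (-0.33 and -0.18) and highest in WT replicate 3 (0.07 and 0.08).

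Most genes around the complex did not pass the test either. Of 42 genes in 7 lists of related functions, all tested, 0 were higher and 1 was lower by edgeR, and 6 had an unadjusted p under 0.05. Among all genes tested 4.87% were higher, 6.46% were lower and 30.2% had an unadjusted p under 0.05. The gene that fell was Psmb10, the immunoproteasome form of the trypsin-like subunit. It had 13.3, 15.2 and 11.3 FPKM in the knockdown libraries, against 27.3, 22.8 and 22.4 FPKM in WT (log2 fold change -0.82, SE 0.14, adjusted p = 0.0184 by edgeR), and the groups did not overlap. The call was lost without knockdown replicate 1 (adjusted p = 0.0627), knockdown replicate 3 (0.0519) or WT replicate 2 (0.0727). Psmb9 (-0.42) and Psmb8 (-0.16) did not pass.

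The immunoproteasome to constitutive ratio was lower in every knockdown library at the trypsin-like and caspase-like sites. Psmb10 over Psmb7, as a ratio of FPKM, was 0.738, 0.794 and 0.621 in the knockdown libraries and 1.35, 0.980 and 0.916 in WT. Psmb9 over Psmb6 was 0.106, 0.0670 and 0.0635 in the knockdown libraries and 0.125, 0.120 and 0.114 in WT. The groups did not overlap for either ratio. Among single genes tested the groups did not overlap in 37.6%, in either direction. Both ratios restate the FPKM of their genes and are not further evidence. Of those genes only Psmb10 was called by edgeR. Psmb8 over Psmb5 was 0.286, 0.274 and 0.360 in the knockdown libraries and 0.352, 0.351 and 0.368 in WT, with overlapping groups. The FPKM of Psmb5 was used as deposited, without Gm3375.

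**Figure D5:**
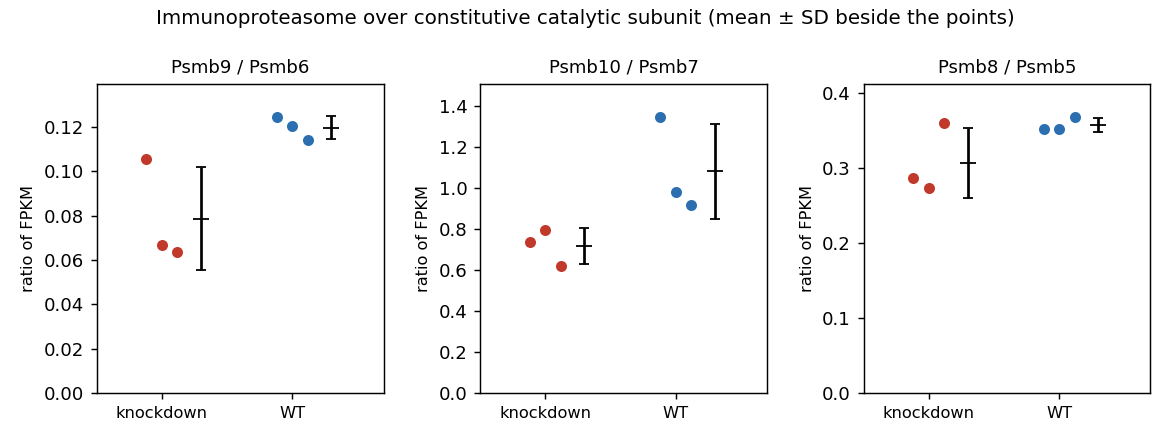
Ratio of FPKM of each immunoproteasome gene to the constitutive gene it replaces, in each library, knockdown left of WT, with mean and SD (n = 3) beside the points. Psmb10 over Psmb7 averages 0.718 in the knockdown and 1.08 in WT, and Psmb8 over Psmb5 overlaps between the groups.

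Of 5 activator and inhibitor genes none passed. Psme1, which encodes a subunit of the PA28 activator, came closest, at 22.4, 19.8 and 19.1 FPKM in the knockdown libraries, against 30.5, 29.8 and 25.998 FPKM in WT. The groups did not overlap, and the log2 fold change of -0.44 (SE 0.11) had an adjusted p of 0.050004 in edgeR, just above the threshold. It was called lower by DESeq2 (0.00768), by limma on log2(FPKM + 1) (0.0265), and by edgeR with RLE size factors (0.0482) or with pseudogene copies added to members (0.04996). It was not called by edgeR with the replicate block (0.0684), upper-quartile scaling (0.0792), no filter (0.0840) or any library left out (0.0630 to 0.156). Its partner Psme2 was at -0.19 (adjusted p = 0.323), Psme4 at -0.06 (0.671) and the inhibitor gene Psmf1 at 0.26 (0.150). The 2 regulatory subunits with other names, Adrm1 (-0.07), a ubiquitin receptor, and Sem1 (-0.05), a lid subunit, did not pass. All 5 genes for chaperones of core assembly were below 0, with Pomp at -0.14, Psmg2 at -0.24, Psmg4 at -0.22 and Psmg3 at -0.15 and adjusted p of at least 0.302.

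NRF1 and the proteins that process it did not pass in any of 9 genes. Nfe2l1, which encodes NRF1, had 8.49, 9.39 and 7.50 FPKM in the knockdown libraries, against 8.87, 43.2 and 10.3 FPKM in WT. WT replicate 2 alone was far above the other 5 libraries. The log2 fold change was -1.24 (SE 0.58, adjusted p = 0.208 by edgeR), and -0.15 without WT replicate 2. In the same library the 14 core genes had a median of 0.01 from the WT mean, which includes that library, between those of the other WT libraries. The part of Nfe2l1 in the subunit levels was not tested. Ddi2, the protease that activates NRF1, was at -0.18 (adjusted p = 0.144), Vcp, the segregase that pulls it from the endoplasmic reticulum, at -0.20 (0.156), and Nfe2l2, which encodes NRF2, at 0.25 (0.184).

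Of 12 genes for ubiquitin enzymes and shuttle factors at the proteasome none passed, and the median was -0.04; the smallest p values were those of the deubiquitinase gene Usp14 (-0.21), Zfand5 (-0.15), Akirin2 (-0.16) and the shuttle gene Rad23b (-0.12). Of 6 ubiquitin and E1 genes none passed in edgeR. Rps27a, a fusion gene that also encodes a ribosomal protein (0.16, adjusted p = 0.389), and the polyubiquitin gene Ubb (0.11, adjusted p = 0.338) lay above 0.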

How the data were processed

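RNA-seq of 6 BMDM libraries, 3 per genotype, was used. Nothing in the labels ties a library to an animal or culture, so p-values reflect only the spread between libraries, possibly technical. The authors deposited estimated counts and FPKM per gene in 1 table, per the file headers. The estimated counts are whole numbers but sum to 2.95 to 3.01 per read pair kept (25.7 to 27.8 M pairs of 141 nt), so no counting interval was made. Reads were trimmed with cutadapt 1.9 (overlap 5, minimum length 100), per the file headers of the logs, and the submitters' processing notes name GRCm38 (mm10) as the build. Aligner, counter, annotation release and strand setting: not given in the sources used here, so overlapping and antisense genes may share reads.

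The test was edgeR 4.0.16 (R 4.3.3): filterByExpr (minimum count 10), TMM, quasi-likelihood test, Benjamini-Hochberg adjustment over 18164 genes and a threshold of 0.05. The SE is the log2 fold change divided by the square root of F. FPKM, as deposited by the authors, is printed per library; fold changes come from the counts. Copies were searched with megablast in the GENCODE M21 transcripts. The fits were tested on simulated data. The members and lists were chosen with earlier results of these data known. Every member may be named; library values were set for members that pass, or the 8 with the smallest p where fewer pass, and for those failing the filter; of each related list up to 4 genes with the smallest p were named. Some genes of these lists are not reported here. Library values of Psmb5, Psma8 and Psmd14, and Gm3375, Gm13835, Ggn and Spred3 were added after their values were seen. Alternatives were RLE and upper-quartile scaling, DESeq2 1.42.0, no filter, limma 3.58.1 on log2(FPKM + 1) or log2(FPKM + 0.1), keeping genes that average 1 FPKM or more, or all genes, the replicate number as a block, each library left out, and, chosen after seeing the data, counts of pseudogene copies added to members.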

Additional observations from a re-analysis of the deposited data

How the results depend on the processing

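Psmd8 lay above 0 in each of the 15 other fits. It was called higher in all of them but the one without WT replicate 2 (adjusted p from 1.81e-07 to 0.0657). Leaving out each library gave 0 to 1 members higher and 0 to 1 lower, 0 to 0 core members higher and 0 to 1 lower, and 0 to 1 regulatory particle members higher and 0 to 0 lower; the core median was -0.21 to -0.09 and the regulatory particle median -0.18 to -0.09. With RLE size factors 1 member was lower, a core member; the same counts, 1 and 1, came from limma on log2(FPKM + 1) and on log2(FPKM + 0.1). DESeq2 called 4 members lower, 2 in the core and 2 in the regulatory particle. Upper-quartile scaling gave 2 members higher, 1 of them in the core, and a regulatory particle median of -0.05. The replicate block gave 1 member higher and 0 lower; same-numbered libraries deviated from their group means with correlations of 0.0458, 0.0361 and -0.0108 over genes, so the numbers were not taken to pair the samples, and over all genes the block left 304 calls higher and 424 lower, against 885 and 1173. Not every library correlated best with its own number. The sign turned, with no call, for Psmb4 (0.003), Psmd6 (0.026), Adrm1 (0.002), Psme4 (0.012) and Sem1 (0.021) with upper-quartile scaling, for Psmd4 (-0.0) and Psmd10 (-0.006) in the 3 limma fits, and for Psmb5 with its copies (-0.142). It also turned when a library was left out: Psmb5 ranged from -0.021 (without knockdown replicate 1) to 0.284, Sem1 from -0.107 to 0.029 (without knockdown replicate 3), and, with the sign turned without WT replicate 2, Psmd5 from -0.37 to 0.013, Psmd10 from -0.037 to 0.106 and Adrm1 from -0.134 to 0.011. Over all genes DESeq2 called 1913 higher and 2234 lower, edgeR with no filter 510 and 695, and limma with no filter 360 and 429. With a library left out edgeR called 0 to 945 higher and 0 to 1389 lower, with 0 called without WT replicate 2 (4065 at an unadjusted p under 0.05). These causes were not tested.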

Other observations

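Ggn and Spred3, which lie near Psmd8 on its lower-coordinate side on chromosome 7, were chosen after their values were seen. Both lay higher in the knockdown, at low levels. Genes on the other side of Psmd8 are not given here. Ggn (29170210 to 29173945, plus strand), known from testis, had 0.568, 0.856 and 0.729 FPKM in the knockdown libraries, against 0.446, 0.334 and 0.329 FPKM in WT (log2 fold change 0.9956, adjusted p = 0.0585 by edgeR). Spred3 (29158829 to 29170411, minus strand), which encodes an inhibitor of Ras signalling to MAP kinase, had 1.63, 1.245 and 1.40 FPKM in the knockdown libraries, against 0.94001, 0.922 and 1.07 FPKM in WT (0.60, adjusted p = 0.0625). The groups did not overlap for either gene, and neither passed the test. Among all genes tested 16.3% had groups that did not overlap, with the knockdown higher.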
